A study of Mus musculus with 6 samples.

Results

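Hyaluronan synthesis, breakdown and binding were followed in mouse skin through 9 genes. These were chosen by name and not by a threshold on their values, but with earlier results of these data known. They are the synthase genes Has1, Has2 and Has3, the genes Hyal1, Hyal2, Cemip and Cemip2 (also called Tmem2) for proteins of hyaluronan breakdown, the receptor gene Cd44, and Tnfaip6, which encodes the secreted hyaluronan-binding protein TSG-6. All 9 were found among the 24061 genes of the count table, and all 9 had enough counts for the test, as did 16371 genes in total. Female C57BL/6 mice, 8 to 14 weeks old, received daily intradermal injections in the shaved back for 14 days. The saline group was given 50 μl of saline and the rIL-31 group 20 μg of recombinant IL-31 (rIL-31) in the same volume, and no other treatment or genetic change is stated for either group. RNA of whole back skin from 3 samples of each group was sequenced to compare the groups at Day 14. No source used here says that each sample was a separate mouse, so p-values measure the spread between samples, which may be technical in part.

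Hyaluronan is a very long, unsulfated sugar polymer of the space between cells, and skin holds a large part of the body's store. The synthases sit in the plasma membrane, join UDP-glucuronic acid and UDP-N-acetylglucosamine from the cytosol into a chain and push it outwards. In skin the polymer is made by dermal fibroblasts and keratinocytes, and it is turned over by cleavage at the cell surface, uptake and digestion in lysosomes, while binding proteins crosslink the chains or hold them at cells.

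In rIL-31-treated skin all 3 synthase genes and Tnfaip6 rose, by 1.77-fold to 3.03-fold. None of the 4 breakdown genes passed the test and neither did Cd44, but these sets of genes were not tested against each other. The words rose and fell are used of genes with a false discovery rate (FDR) below 0.1 in edgeR's quasi-likelihood test, adjusted over all genes tested. By this rule 4 of the 9 members rose, against 4.51% of all genes tested. Since the members were chosen with earlier results known, this and the comparisons below do not describe a blind choice of genes. No member fell in edgeR, against 3.73% of all genes, and none was lower at an unadjusted p below 0.05 or by DESeq2, edgeR's exact test or limma-voom. When a change of more than 2-fold was also required, 2 of the 9 members were higher, Has1 and Tnfaip6, against 1.15% of all genes, and 0 were lower, against 0.696%. The median log2 fold change was 0.66 over the members and 0.01 over all genes tested. In 5 of the 9 members every rIL-31 library was above every saline library, against 12.8% of all genes, and in 0 every rIL-31 library was below, against 12.9% (25.7% for either direction).

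**Figure D1:**
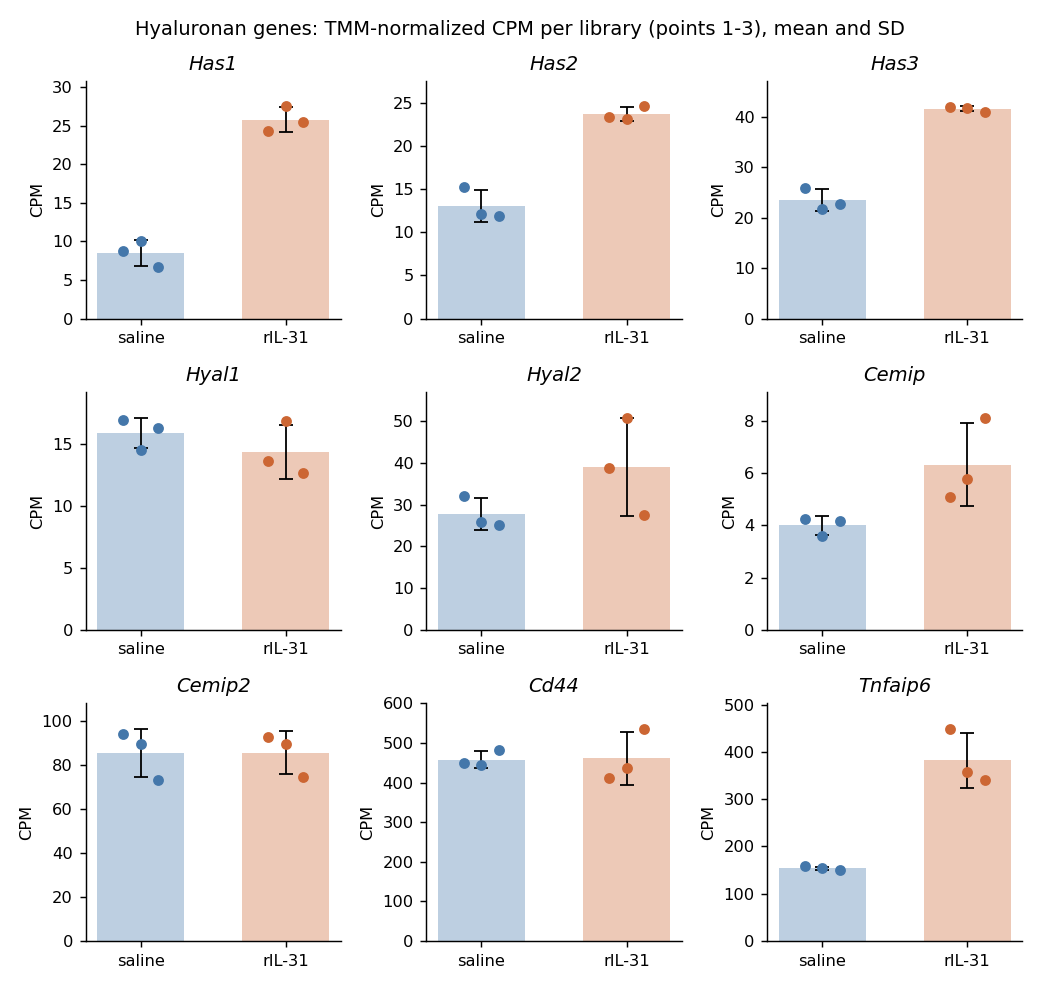
Levels of the 9 hyaluronan genes in CPM (counts scaled to one fixed library size) after TMM scaling (trimmed mean of M values). Points are the 3 libraries of each group from replicate 1 to 3, bars the mean and whiskers the SD; Has1, Has2, Has3, Cemip and Tnfaip6 have every rIL-31 library above every saline library, and the other 4 genes overlap.

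Library totals ran from 21710679 to 25552684 counts, and markers of keratinocytes, fibroblasts and leukocytes were detected in every library. Of 6 basal keratinocyte markers 4 rose, and the summed level of all 6 was 4833 to 5348 CPM in saline and 7025 to 10576 CPM in rIL-31 libraries. Krt15 was higher but did not pass. Trp63 did not pass either and was lower in every rIL-31 library than in any saline library (log2 fold change -0.18, edgeR FDR 0.382). Of 5 suprabasal keratinocyte markers 2 rose and 1 fell, and their sum was 4927 to 5128 CPM against 7195 to 8256 CPM. Of 7 fibroblast markers none passed the test in edgeR, DESeq2, edgeR's exact test or limma-voom or had an unadjusted p below 0.05, and their sum was 13583 to 13796 CPM against 13660 to 15530 CPM. Mast cell markers rose in 4 of 5 cases (205 to 212 CPM against 265 to 314 CPM), while Kit did not pass (log2 fold change -0.21, edgeR FDR 0.455). Of 4 neutrophil markers 2 rose, S100a9 and Csf3r (sums of 93.4 to 122 CPM against 130.3 to 163 CPM). Of 4 general leukocyte markers 1 rose, Coro1a. None of 5 macrophage markers and none of 4 T cell markers passed. Of all genes tested, 4.51% rose and 3.73% fell. Immediate early genes rose in 8 of 8 cases (7 after a correction for GC content and length), with sums of 691 to 725 CPM against 2401 to 2571 CPM. Of 4 skeletal muscle markers 1 fell, Myh4, and their sum was 3373 to 3621 CPM in saline and 2412 to 2930 CPM in rIL-31 libraries. Gene numbers without a name took 4.74% to 6.03% of the counts in saline and 0.913% to 2.84% in rIL-31 libraries. Lars2, a mitochondrial tRNA synthetase gene, took 0.752% to 0.870% of the counts in saline but 0.046% to 0.420% in rIL-31 libraries. Across genes, which are not independent replicates, the Spearman correlation of a library's deviation from the mean with GC content was -0.24 to -0.12 in the saline libraries, 0.40 and 0.27 in rIL-31 replicates 1 and 2, and -0.26 in rIL-31 replicate 3. A fit corrected for GC content and length is given beside the members and the other hyaluronan genes that were called. It called 939 genes higher and 488 lower, against 739 and 610 without the correction, and Has1, Has2, Has3 and Tnfaip6 were the members called in it. Where keratinocyte, leukocyte, mast cell, neutrophil, muscle or early-response genes moved with the treatment, their part in the hyaluronan results was not tested. Nor was that of Lars2 or the unnamed gene numbers. In whole skin, more cells of a type and more RNA per cell cannot be told apart, and neither can treatment and any difference in preparation between the groups.

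Among the synthases, Has1 had the largest fold change. Has1 encodes the synthase known to be induced by inflammatory cytokines in cultured human fibroblasts. Its level was 8.74, 10.1 and 6.67 CPM in saline replicates 1 to 3 and 24.4, 27.5 and 25.5 CPM in rIL-31 replicates 1 to 3. Every rIL-31 library held more than 2 times the level of any saline library, so the groups lay far apart. The means were 8.50 ± 1.73 (SD, n = 3) and 25.8 ± 1.58 CPM (SD, n = 3), a log2 fold change of 1.60 (standard error 0.17, edgeR FDR 0.000527). After the GC and length correction it was 1.48 (edgeR FDR 0.000821).

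Has1 lies on chromosome 17 from 17833691 to 17855589 (RefSeq, GRCm38.p6), where its span overlaps that of Spaca6 on the opposite strand without shared exon bases. The 250 bases before the transcript start used by RefSeq's promoter table are shown because Has1 changed most in fold among the members. The gene's annotated span reaches farther upstream than this start and covers all 250 bases shown. Capitals mark the match to any of 6 searched motifs.
Has1, chr17:17855189-17855438, minus strand: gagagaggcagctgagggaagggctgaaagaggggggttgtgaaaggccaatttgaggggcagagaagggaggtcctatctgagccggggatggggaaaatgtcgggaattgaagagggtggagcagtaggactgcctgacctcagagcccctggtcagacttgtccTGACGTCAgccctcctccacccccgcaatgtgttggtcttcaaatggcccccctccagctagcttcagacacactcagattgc
The match was a full cyclic AMP response element, TGACGTCA, from 83 to 76 bases before the start, a motif found in the same window of 1.62% of 27025 genes. A match describes the letters only and is no evidence of binding.

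Has2 and Has3 rose as well. Has2 encodes the synthase that mouse embryos need for heart development and that is prominent in dermal fibroblasts. It was at 15.2, 12.1 and 11.9 CPM in saline and at 23.4, 23.1 and 24.6 CPM in rIL-31 libraries. The groups did not overlap, and saline replicate 1 stood above the others of its group. Its log2 fold change was 0.86 (standard error 0.15, edgeR FDR 0.00852), or 1.81-fold, and 0.99 after the GC and length correction. Has2 lies on chromosome 15 from 56665627 to 56694546 and overlaps its antisense RNA gene Has2os. Has2os had 14 to 50 counts per library against 255 to 632 for Has2, and its log2 fold change of 0.69 (standard error 0.48, edgeR FDR 0.48) did not pass the test. Use of strand in the counting is not given in the sources used here, and reads of this pair may be mixed.

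Has3 encodes the synthase that is prominent in keratinocytes. It was at 25.9, 21.8 and 22.7 CPM in saline and at 41.9, 41.7 and 41.0 CPM in rIL-31 libraries. The rIL-31 libraries were nearly equal and stood well above the saline libraries. The log2 fold change was 0.82 (standard error 0.12, edgeR FDR 0.00351), or 1.77-fold, and 0.94 after the GC and length correction. Has3 lies on chromosome 8 from 106870242 to 106882902.

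Levels of different genes were compared per kilobase of exon (RPKM, here TMM-scaled CPM divided by exon length), since longer transcripts give more counts. The synthases summed to 11.8, 11.1 and 9.55 RPKM in saline and to 23.7, 25.1 and 24.4 RPKM in rIL-31 libraries. Has1 made up 35.3%, 43.5% and 33.3% of this sum in saline replicates 1 to 3 and 49.1%, 52.2% and 49.9% in each rIL-31 library, so its share was higher in every rIL-31 library. The mean share of Has1 differed by 13.0 percentage points, that of Has2 by -5.59 points and that of Has3 by -7.44 points (rIL-31 minus saline). For each of these 3 shares the two-sided exact permutation test over samples gave p = 0.1, the smallest p that 3 samples against 3 allow, and 0.1 again after adjustment over the 3 shares. The split depends on the length used. Per coding base, Has1 made up 18.1% ± 3.48 (SD, n = 3) in saline and 27.3% ± 1.29 (SD, n = 3) in rIL-31 libraries, and Has3 had the largest share in both groups.

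**Figure D2:**
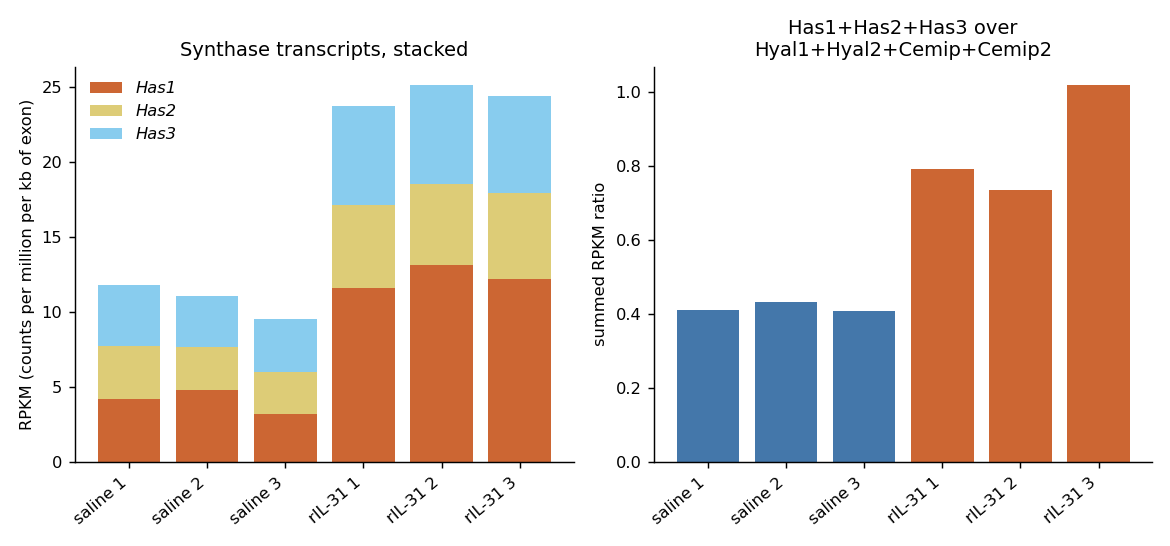
Left, length-scaled level (RPKM) of Has1, Has2 and Has3 stacked for each of the 6 libraries. Right, the summed RPKM of the synthases divided by that of Hyal1, Hyal2, Cemip and Cemip2 in the same library; the stack reaches 9.55 to 11.8 RPKM in saline and 23.7 to 25.1 RPKM in rIL-31 libraries, and the ratio is 0.408 to 0.434 in saline and 0.737 to 1.02 in rIL-31 libraries.

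For hyaluronan breakdown, 0 of 4 genes passed the test in edgeR, against 8.24% of all genes tested in either direction. None passed in DESeq2, edgeR's exact test or limma-voom. At an unadjusted p below 0.05 in edgeR there were 2, Hyal2 and Cemip, both higher in rIL-31 libraries on average. Whether the breakdown genes differed from the synthase genes in their change was not tested. Hyal1 encodes the acidic hyaluronidase of lysosomes. It was at 16.9, 14.5 and 16.3 CPM in saline and at 13.6, 16.8 and 12.7 CPM in rIL-31 libraries. The groups overlapped, with rIL-31 replicate 2 close to the highest saline library. This gave a log2 fold change of -0.15 (standard error 0.16, edgeR FDR 0.682). It was -0.29 without rIL-31 replicate 2, -0.06 without rIL-31 replicate 3, and -0.24 after the GC and length correction (edgeR FDR 0.414). Hyal1 lies on chromosome 9 from 107576950 to 107581699 and shares exon bases on the same strand with Naa80 and Hyal3, so its counts are uncertain.

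Hyal2, its neighbour from 107567873 to 107572778, encodes a hyaluronidase anchored at the cell surface that breaks long chains into fragments. Its level was 32.0, 25.9 and 25.1 CPM in saline and 38.8, 50.8 and 27.4 CPM in rIL-31 libraries. Replicates 1 and 2 of rIL-31 stood above all saline libraries, and replicate 3 lay inside the saline range. The log2 fold change was 0.49 (standard error 0.20, edgeR FDR 0.21). It was 0.69 without rIL-31 replicate 3 (edgeR FDR 0.011), where it passed the test, and 0.25 without rIL-31 replicate 2 (edgeR FDR 0.559). Hyal2 transcripts hold 55.2% GC, and rIL-31 replicates 1 and 2 are the libraries with a positive correlation with GC content. Whether GC content had a part in these levels of Hyal2 was not tested. After the GC and length correction the log2 fold change was 0.37 (edgeR FDR 0.259).

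Cemip, on chromosome 7 from 83932857 to 84086693, encodes a protein that binds and depolymerises hyaluronan in cultured human fibroblasts. It had few reads, 83 to 101 counts in saline and 120 to 209 in rIL-31 libraries. Its level was 4.24, 3.60 and 4.15 CPM in saline and 5.08, 5.77 and 8.13 CPM in rIL-31 libraries. The groups did not overlap, and rIL-31 replicate 3 was the highest. Its log2 fold change was 0.66 (standard error 0.25, edgeR FDR 0.174), and 0.44 without rIL-31 replicate 3 (edgeR FDR 0.284). The GC and length correction gave 0.74 (edgeR FDR 0.132).

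Cemip2, on chromosome 19 from 21778340 to 21858360, encodes a related transmembrane protein named as a cell-surface hyaluronidase. It was at 93.9, 89.5 and 73.1 CPM in saline and at 92.6, 89.6 and 74.6 CPM in rIL-31 libraries. Both groups covered nearly the same range. On the log2 scale the difference was 0.0019 (standard error 0.13, edgeR FDR 0.996), with a sign that turns under other scalings, and 0.11 after the GC and length correction (edgeR FDR 0.678).

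Summed over the 4 breakdown genes, the length-scaled level was 28.8, 25.6 and 23.4 RPKM in saline and 29.9, 34.1 and 24.0 RPKM in rIL-31 libraries, with overlap between the groups. The synthase sum divided by this breakdown sum was 0.410, 0.434 and 0.408 in the saline replicates and 0.793, 0.737 and 1.02 in the rIL-31 replicates. The ratio was thus higher in each rIL-31 library than in any saline library. It rests on the exon lengths used and in part on the uncertain counts of Hyal1, and it was not tested. It is a ratio of transcripts, and neither enzyme activity nor hyaluronan was measured in these files.

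Of the binding genes, Tnfaip6 rose and Cd44 did not pass the test. TSG-6, the product of Tnfaip6, is induced by inflammatory cytokines and moves the heavy chains of inter-alpha-inhibitor onto hyaluronan. Its transcript was at 158, 153 and 151 CPM in saline and at 449, 358 and 340.3 CPM in rIL-31 libraries. The saline libraries were close together, and the lowest rIL-31 library held more than 2 times the level of any of them. The means were 154 ± 3.53 (SD, n = 3) and 382 ± 58.3 CPM (SD, n = 3), a log2 fold change of 1.31 (standard error 0.12, edgeR FDR 0.000154), or 2.48-fold. After the GC and length correction it was 1.40 (edgeR FDR 0.000405). Tnfaip6 had the smallest p of the members.

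Tnfaip6 lies on chromosome 2 from 52038113 to 52056681. The bases before it are shown because it had the smallest p, and they end where the first protein-coding GENCODE transcript begins, which leaves 104 bases of the 250 unprinted. Cd44, also on chromosome 2, from 102811141 to 102901669, is shown as the binding gene that did not pass the test.
Tnfaip6, chr2:52037863-52038008, plus strand: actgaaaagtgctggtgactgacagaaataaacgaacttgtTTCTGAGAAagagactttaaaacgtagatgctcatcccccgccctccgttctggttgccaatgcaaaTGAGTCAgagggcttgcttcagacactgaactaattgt
Cd44, chr2:102901666-102901915, minus strand: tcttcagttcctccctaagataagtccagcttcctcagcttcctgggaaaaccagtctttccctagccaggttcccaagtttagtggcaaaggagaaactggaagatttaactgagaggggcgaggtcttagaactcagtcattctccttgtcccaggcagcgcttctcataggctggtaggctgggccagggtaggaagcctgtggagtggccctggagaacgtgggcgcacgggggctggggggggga
In Tnfaip6 the first run of capitals is a match to the STAT motif TTCNNNGAA, from 209 to 201 bases before the RefSeq start, and the second is a match to the AP-1 motif TGANTCA, from 142 to 136 bases before it. These motifs were found in 7.18% and 6.87% of the 27025 windows. The window of Cd44 held no match to the 6 motifs. The others searched, on both strands, were the TATA box TATAAA (13.0% of windows), the cyclic AMP response element above, and the consensus sites of NF-kB (7.01%) and of serum response factor (CArG box, 1.40%). No match of one motif overlapped that of another in Has1, Tnfaip6 or Cd44. Of the other members, Hyal2 held an NF-kB match, Cemip held a TATA box, and Hyal1 held none. Windows of Has2, Has3 and Cemip2 were not analysed here. Where no match was found, only these letters are missing from this window.

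Cd44 encodes the main cell-surface receptor for hyaluronan, carried by keratinocytes, fibroblasts and leukocytes. It was at 448, 445 and 482 CPM in saline and at 410.4, 437 and 536 CPM in rIL-31 libraries. The highest and the lowest of the 6 libraries were both rIL-31 libraries, replicates 3 and 1, so the groups overlapped. On the log2 scale the difference was 0.0087 (standard error 0.12, edgeR FDR 0.98), with a sign that depends on the scaling, and 0.16 after the GC and length correction (edgeR FDR 0.367). The counts are per gene and do not separate the spliced forms of this receptor. Per kilobase, Tnfaip6 stood at 1.16, 1.14 and 1.03 times the level of Cd44 in saline and at 3.62, 2.71 and 2.10 times in rIL-31 libraries. These values rest on the exon lengths used, 5654 bases for Cd44 and 1710 bases for Tnfaip6.

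In order of length-scaled level, saline-treated skin had Tnfaip6 first at 90.0 ± 2.06 RPKM (SD, n = 3) and Cd44 next at 81.1 ± 3.65 RPKM (SD, n = 3), without overlap between their libraries. Cemip2 at 12.8 RPKM and Hyal2 at 8.40 RPKM followed. Hyal1, Has1, Has3 and Has2 came next at mean levels of 4.21, 4.06, 3.68 and 3.08 RPKM, each overlapping its neighbour in this order. Cemip was last at 0.562 RPKM. In rIL-31-treated skin Tnfaip6 was at 224 ± 34.1 RPKM (SD, n = 3) and Cd44 at 81.6 ± 11.7 RPKM (SD, n = 3). There Has1 at 12.3 RPKM stood between Cemip2 at 12.8 RPKM and Hyal2 at 11.8 RPKM and overlapped both. Has3 at 6.51 RPKM, Has2 at 5.59 RPKM, Hyal1 at 3.80 RPKM and Cemip at 0.889 RPKM came after them, with no overlap between neighbours. The place of Has1 in both groups rests on exon length, since per coding base it stood below Has3. The place of Tnfaip6 above Cd44 rests on exon length as well. In CPM, Cd44 had the higher mean in both groups. Cd44 was at 458 CPM and Tnfaip6 at 154 CPM in saline, and they were at 461 and 382 CPM in rIL-31 libraries. Other lengths were not tried for this pair.

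Among the genes whose pattern over the 6 libraries was most like that of Tnfaip6 were Elovl3, Sele, Gm5478 and Sprr2a2. Likeness was the root mean square difference in log2 CPM after each gene's mean was subtracted, and it ran from 0.0863 for Elovl3 to 0.123 for Sprr2a2. Sele encodes the endothelial adhesion receptor E-selectin and Elovl3 a fatty acid elongase of skin glands. Sprr2a2 has near-identical copies, so its counts are uncertain.

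Of the wider hyaluronan pathway 41 other genes were listed, from sugar precursors to further binding proteins, and 30 had enough counts for the test. Of these 30, 3 rose and 3 fell, against 8.24% of all genes tested in either direction, and 24 did not pass. The count that fell was 1 without saline replicate 1, 2 or 3 in turn and 4 without rIL-31 replicate 3, and it was 2 after the GC and length correction. The median log2 fold change of the 30 was -0.05. The count of each role group below stands beside the same 8.24%, and at that share so small a group often holds no call.

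**Figure D3:**
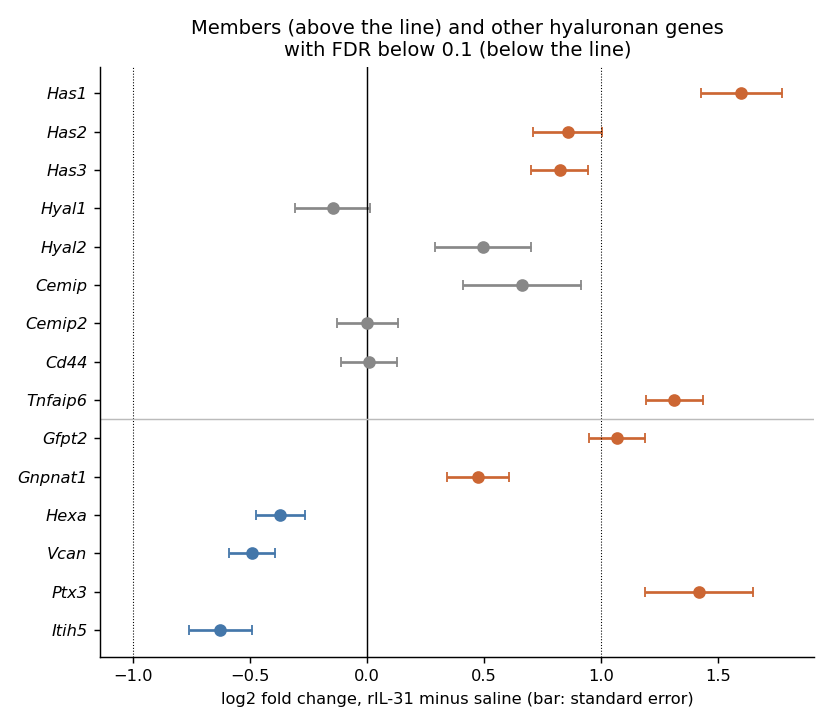
Log2 fold change (rIL-31 minus saline) of the 9 members, above the line, and of the 6 other hyaluronan genes that passed the test, below it, with the standard error as bars. Orange marks genes that rose, blue genes that fell and grey genes that did not pass, and dotted lines mark 2-fold; Has1, Tnfaip6, Gfpt2 and Ptx3 lie beyond the upper line.

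Among 7 genes of nucleotide sugar precursors 2 rose, Gfpt2 and Gnpnat1. Gfpt2 encodes an isoform of the enzyme that commits fructose 6-phosphate to hexosamine synthesis, the route to UDP-N-acetylglucosamine. It was at 37.0 (saline replicate 1), 46.3 and 46.3 CPM in saline and at 93.5, 90.1 and 87.5 CPM in rIL-31 libraries. The groups lay far apart, with a log2 fold change of 1.07 (standard error 0.12, edgeR FDR 0.000664), or 2.09-fold, and 1.03 after the GC and length correction. Gnpnat1, for the acetyltransferase of the same route, was at 26.9 to 28.3 CPM in saline and 33.9 to 44.4 CPM in rIL-31 libraries. The change was 0.48 on the log2 scale (standard error 0.13, edgeR FDR 0.0699), and it did not pass without saline replicate 1, 2 or 3 (edgeR FDR 0.193, 0.299 and 0.216) or without rIL-31 replicate 1 (edgeR FDR 0.145). Corrected for GC content and length, it was 0.63 (edgeR FDR 0.00806). Gnpnat1 also shares exon bases with Styx on the opposite strand, so its counts are uncertain. Ugdh, which makes UDP-glucuronic acid and had the highest mean length-scaled level of this group, with Ugp2 above it in 3 of the 6 libraries, was at 146 to 149 CPM in saline and 153 to 181 CPM in rIL-31 libraries, a log2 fold change of 0.17 (standard error 0.10, edgeR FDR 0.41).

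Of 5 tested genes for other hyaluronidases and exoglycosidases, 1 fell, Hexa, the alpha subunit gene of the lysosomal beta-hexosaminidase that removes sugars from chain ends. It was at 75.4 to 77.1 CPM in saline and 55.1 to 62.9 CPM in rIL-31 libraries, a log2 fold change of -0.37 (standard error 0.10, edgeR FDR 0.072). It did not pass without saline replicate 1, 2 or 3 (edgeR FDR 0.215, 0.295 and 0.238) or without rIL-31 replicate 2 (edgeR FDR 0.171), and was -0.50 after the GC and length correction (edgeR FDR 0.0132). Spam1, a sperm hyaluronidase gene, had 0 counts in all 6 libraries, which allows up to 0.0212 CPM (3 of 141610799 counts, counting error only). Of the 11 genes with too few counts for the test, it was the only one with no count.

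Among 7 tested receptor genes other than Cd44, none passed the test in edgeR, against 8.24% of all genes tested in either direction. None passed in DESeq2, edgeR's exact test or limma-voom. At an unadjusted p below 0.05 in edgeR 1, Layn, was lower (log2 fold change -0.43, standard error 0.18, edgeR FDR 0.226). Layn is named after its value was seen. Stab1, a scavenger receptor gene of sinusoidal endothelium and macrophages, had the highest mean length-scaled level of these. In rIL-31 replicate 3, however, Tlr2 stood above it. Stab1 was at 89.5 to 111 CPM in saline and 79.0 to 114 CPM in rIL-31 libraries.

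Among 5 tested genes for binding proteoglycans, link proteins and pentraxin 3, Ptx3 rose and Vcan fell. Ptx3 encodes a soluble pentraxin that, together with TSG-6 and inter-alpha-inhibitor, crosslinks hyaluronan in the matrix around the mouse oocyte. It was at 33.1, 21.7 and 23.5 CPM in saline and at 83.2, 79.9 and 46.2 CPM in rIL-31 libraries. All rIL-31 libraries were higher, replicate 3 the least so, with a log2 fold change of 1.42 (standard error 0.23, edgeR FDR 0.00584), and 1.34 after the GC and length correction. Vcan encodes versican, the large hyaluronan-binding proteoglycan of the dermis. It was at 170.4, 159 and 168 CPM in saline and at 124, 115 and 116 CPM in rIL-31 libraries, a log2 fold change of -0.49 (standard error 0.10, edgeR FDR 0.0174). After the GC and length correction it was -0.15 and did not pass (edgeR FDR 0.504), nor did it without saline replicate 3 (-0.48, edgeR FDR 0.101).

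Of the inter-alpha-inhibitor family, whose heavy chains TSG-6 transfers, 2 of 6 genes were tested and Itih5 fell. It was at 118, 104 and 103 CPM in saline and at 60.5, 66.7 and 83.6 CPM in rIL-31 libraries. The groups did not overlap, and rIL-31 replicate 3 was nearest to the saline libraries. The log2 fold change was -0.62 (standard error 0.13, edgeR FDR 0.0249), and it did not pass without saline replicate 1 (edgeR FDR 0.115) or 2 (edgeR FDR 0.106). After the GC and length correction it was -0.42 (edgeR FDR 0.0521). Of 3 other hyaluronan-binding protein genes none passed the test in edgeR, DESeq2, edgeR's exact test or limma-voom or had an unadjusted p below 0.05, and C1qbp, with the highest length-scaled level, had a log2 fold change of -0.03 (standard error 0.10, edgeR FDR 0.889).

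**Figure D4:**
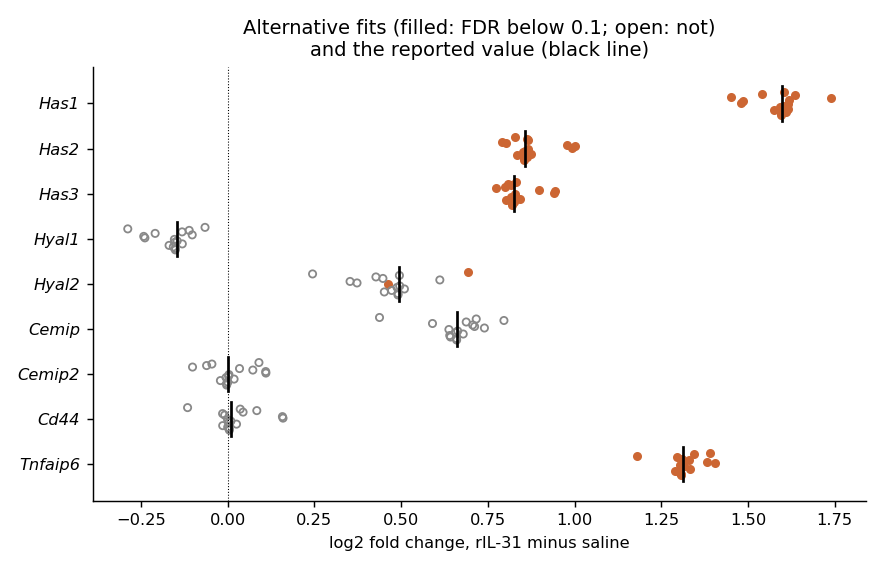
Log2 fold change (rIL-31 minus saline) of the 9 members under 16 alternative fits, as points, filled where the FDR was below 0.1 and open where not, with the reported value as a black line. Has1, Has2, Has3 and Tnfaip6 are filled throughout, between 0.77 for Has3 and 1.74 for Has1, and Hyal2 is filled in 2 of the 16 fits.

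The 4 members that rose passed the test in 16 of 16 alternative fits, with other tests, scalings and filters, the GC and length correction, a replicate block, and each library left out. The log2 fold change over these fits ran from 1.45 to 1.74 for Has1, from 0.792 to 1.002 for Has2, from 0.77 to 0.94 for Has3 and from 1.18 to 1.40 for Tnfaip6. The highest FDR was 0.00461 for Has1, 0.0755 for Has2, 0.0452 for Has3 and 0.00316 for Tnfaip6.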

How the data were processed

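RNA of whole mouse skin was sequenced in 3 saline and 3 rIL-31 samples, grouped by their labels. The authors deposited one table of raw read counts, whole numbers per gene. The submitters' processing notes list the genome build mm10 and the tools TopHat, DESeq, bcl2fastq and CASAVA 1.8. Not given in the sources used here are the counting program, its annotation, its use of strand and its treatment of multiply mapping reads.

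Names and positions came from RefSeq (GRCm38.p6), in which 85 of 24061 gene numbers had no name; these stayed in totals and tests. Exon lengths and GC content came from the protein-coding transcripts of GENCODE M21, or from other transcripts where a gene had no protein-coding one. GC content was that of the longest of these transcripts, and 94.2% of tested genes had a value. Filtering with filterByExpr (minimum count 10) left 16371 genes. The test was the quasi-likelihood test of edgeR 4.0.16 under R 4.3.3, with TMM scaling, no covariate and Benjamini-Hochberg adjustment. Calls used an FDR below 0.1, or also p below 0.05 and more than 2-fold, the cut-offs of the study. The study tested with DESeq and reported more genes at those cut-offs than the 188 higher and 114 lower found here. CPM and RPKM were computed here. The procedure was tested on simulated data, which held no effect of GC content or length. That test therefore cannot say how the fits behave under the GC differences between these libraries. The lowest chi-square per degree of freedom between libraries was 8.68, so none was another library counted or sequenced again. This value cannot say whether any libraries came from the same mouse. Total counts were 23963685, 23058734 and 21710679 for saline replicates 1 to 3 and 23122953, 24202064 and 25552684 for the rIL-31 replicates, and more counts give less error for a gene.

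Alternatives were limma-voom (limma 3.58.1), DESeq2 (1.42.0), the exact test of edgeR with RLE scaling, scaling by the upper quartile or by library size alone, omission of the filter, a filter of at least 10 counts in each library, offsets for GC content and length, a replicate block with and without these offsets, each library left out, an FDR below 0.05, and other lengths for the synthase shares. The members and lists were chosen with earlier results of these data known. Named besides the members were other hyaluronan genes with an FDR below 0.1, with no counts, or with the highest length-scaled level of their role, genes overlapping a member, and the 5 genes most like the member with the smallest p; some of the genes this rule gives are not reported here. Promoter windows of 250 bases came from RefSeq, with an entry for 6 of the 9 members.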

Additional observations from a re-analysis of the deposited data

How the results depend on the processing

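Of the alternative fits of the 9 members, 131 kept direction and side of the threshold, 11 turned in sign and 2 came to pass. Of those of the other hyaluronan genes called, 83 kept both and 13 no longer passed. The sign of Cemip2 turned with DESeq2 (-0.0026), edgeR's exact test (-0.0026), upper-quartile scaling (-0.021) and no filter (-0.0043), and with libraries left out it ran from -0.10 to 0.090. That of Cd44 turned with upper-quartile scaling (-0.014) and ran from -0.12 to 0.084 with libraries left out. Neither passed the test in any fit. Hyal2 ran from 0.25 to 0.69 with libraries left out. The number of other hyaluronan genes that fell ran from 1 to 4 with libraries left out, against 3. The difference in the share of Has2 was -2.92 points by raw counts and -2.83 by coding length, against -5.59. For these, the cause was not tested.

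With the replicate number as a block, 5 members were higher against 4, since Hyal2 then passed (0.46, edgeR FDR 0.0717), and 1177 genes rose and 1096 fell, against 739 and 610. The numbers were not taken to pair the samples. Deviations of same-numbered samples correlated at 0.08, -0.02 and 0.22, and not every sample correlated best with its own number. Over all genes, DESeq2 called 1029 higher and 924 lower, and leaving out libraries gave 246 to 2050 higher and 171 to 1968 lower, the most without rIL-31 replicate 3; the GC and length offsets gave 939 higher and 488 lower, and with the replicate block 1368 and 780. Of the 41 other hyaluronan genes, 11 had too few counts for the test. Whether depth or low expression limited these was not tested.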
